A study of Mus musculus with 15 samples.

Results

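Border-associated macrophages are the resident macrophages of the meninges, the perivascular spaces and the choroid plexus, and 7 genes that are commonly used to mark them served here to pick cells from a data set of brain microglia. A cell was taken when it held at least 1 unique molecular identifier (UMI, a tag that counts 1 captured mRNA molecule) of at least 3 of the 7 genes Mrc1, Pf4, Cd163, Lyve1, Cbr2, F13a1 and Ms4a7. This rule took 453 of 102043 cells, and the remaining 101590 cells are called other cells. Of the 453 cells, 301 held 3 of the genes, 90 held 4, 43 held 5, 16 held 6 and 3 held all 7. Just outside the threshold stood 635 cells with 2 of the genes. Since nearly all of the 453 cells also carried the genes of homeostatic microglia, as described later, the data go against a plain macrophage name, and the cells are called multi-marker cells throughout.

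Border-associated macrophages and microglia both come from early yolk sac progenitors and both need signalling through the receptor CSF1R, but they live in different niches. Microglia sit in the parenchyma and carry P2RY12, TMEM119 and the transcription factor SALL1. Border macrophages sit along vessels and membranes, take up material from blood and cerebrospinal fluid through scavenger receptors such as CD163, MRC1 and LYVE1, and present antigen on MHC class II in part of their population.

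The cells came from 15 male hTfR KI mice on the C57BL/6J background, which carry human sequence in their transferrin receptor gene and were 3.5 months old. Each mouse received a single dose of 10 mg/kg of ATV:4D9, an activating antibody against TREM2 whose Fc (the antibody transport vehicle, ATV) binds the human part of the transferrin receptor, or of ATV:RSV, a control antibody that shares this vehicle. ATV:RSV mice were sampled at day 1 and ATV:4D9 mice at days 1, 7, 14 and 28, with 3 mice in each of these 5 groups. Mice were perfused with saline before the cortex and hippocampus of 1 hemisphere were dissociated, and cells were enriched with CD45 beads, which bind all leukocytes and thus microglia, border macrophages and blood cells alike. All 5 groups shared the knock-in allele, the vehicle and the dose, the later days had no control of their own day, and each batch of libraries held 1 mouse of every group. The tissue labels name cortex and hippocampus and say nothing of whether the meninges or the choroid plexus were kept.

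The multi-marker cells numbered 15 to 75 per mouse and held 173958 to 1008412 UMIs per mouse, in all 5803497 UMIs or 0.820% of the total, whereas the other cells held 32044912 to 69575464 UMIs per mouse. The median multi-marker cell had 8651 to 15440 UMIs, depending on the mouse, which was 1.27 to 3.25 times the median of the other cells and higher in 15 of 15 mice. Other cells of ATV:4D9 day 1 were themselves deeper, with medians of 8171 to 8984 UMIs against 4968 to 5744 in ATV:RSV. No doublet caller was run, and it is not known whether doublets had been removed before deposit. In the ATV:RSV mice, 40.7%, 58.3% and 40.0% of the multi-marker cells lay above the 95th percentile of UMIs of their own mouse, and in the day 1 mice 16.7%, 18.7% and 14.9%. The cell barcodes of 14 of the 453 cells (3.09%) also occurred in another library, against 2.53% of all cells, and no barcode was shared by multi-marker cells of 2 libraries.

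The 7 genes that chose the cells are given as a description, since the rule fixed their direction. Pf4, which encodes the chemokine platelet factor 4 and lies at chr5:90772435-90773383 (+ strand) in mm10, was the gene met most often, with a UMI in 93.6% of multi-marker cells and 2.16% of other cells. After each cell was thinned at random to 3385 UMIs, these shares were 57.0% and 1.20%. Mrc1, the mannose receptor gene at chr2:14229392-14332057 (+ strand), was detected in 73.7% against 3.37%, or 31.8% against 1.79% after thinning. The transglutaminase subunit gene F13a1 (chr13:36867178-37050244 (− strand)) had a UMI in 61.1% of the cells, Ms4a7, a 4-span membrane protein gene (chr19:11321039-11336146 (− strand)), in 49.9%, and the carbonyl reductase gene Cbr2 (chr11:120729489-120732114 (− strand)) in 40.0%. The receptors that most narrowly mark border macrophages were the rarest, with the hemoglobin scavenger receptor Cd163 (chr6:124304656-124330527 (+ strand)) in 19.2% and the hyaluronan receptor Lyve1 (chr7:110850607-110863239 (− strand)) in 14.6% of multi-marker cells. Other cells held a Cd163 UMI in 0.179% and a Lyve1 UMI in 0.107% of cases, shares that the rule itself keeps low.

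The multi-marker cells were 0.444% of all cells and held a much larger share of the UMIs of these genes, from 15.5% for Mrc1 to 48.1% for Lyve1, with 35.6% for Pf4, 36.9% for Cd163, 34.2% for Cbr2, 43.3% for F13a1 and 41.8% for Ms4a7. The larger part of the UMIs of each gene was therefore counted in cells that did not meet the rule, with no estimate of how many of these came from free RNA. The totals behind these shares were small, from 212 UMIs of Lyve1 and 298 of Cd163 up to 4659 of Mrc1.

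Whether the cells are macrophages rather than microglia was examined with genes outside the rule. The 15 homeostatic microglia genes summed to 23597 CPM (UMI counts scaled to a common library total) on average in multi-marker cells and 27242 CPM in other cells, so the multi-marker cells carried most of the microglial signal. Of the 453 cells, 450 had UMIs of at least 3 of the 15 genes. All 15 genes were lower in multi-marker cells by their median CPM difference over mice, with Tmem119, Gpr34, Olfml3 and Selplg among those lower in 15 of 15 mice. Most genes were lower by this measure, 8614 of all 10895 with at least 10 UMIs, 66 of them in 15 of 15 mice. Per cell, however, multi-marker cells held more UMIs of the list on average than other cells in 14 of 15 mice. The median ratio of these means was 1.83 (0.998 to 2.47), and that of the median UMIs per cell, an unlike measure, was 2.21. Relative to all UMIs, the list stood at a median ratio of 0.918 (0.807 to 0.991). The median difference of the list was -0.22 on the log2 scale, beside -0.16 over all 10895 genes with at least 10 UMIs. P2ry12, the purinergic receptor of surveilling microglia, stood at 1524 ± 484 against 1765 ± 482 CPM (mean ± SD over 15 mice), and Tmem119 at 914 ± 152 against 1100.0 ± 92.5 CPM.

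Of 30 border macrophage markers that the rule did not use, 26 had at least 10 UMIs, and 20 of these were higher and 6 lower in multi-marker cells, with a median difference of +0.96. Over all 10895 genes with at least 10 UMIs, 2279 were higher and 8614 lower. The summed level of the 30 genes was nonetheless close in the 2 classes, at 2094 against 1832 CPM. Dab2 (an endocytic adaptor), Igfbp4 (an IGF-binding protein), Folr2 (a folate receptor) and Cd209f (a C-type lectin) were higher in 15 of 15 mice, whereas the iron exporter Slc40a1 was lower in 15 of 15. Vsig4 and Cd209d were at 0 in multi-marker cells.

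The level of these markers moved with the number of rule genes in a cell, which is a description, since the same cells were chosen by those genes. P2ry12 fell from 1675 CPM over the cells with none of the 7 genes to 1361 CPM in the 301 cells with 3, 1091 CPM in the 43 cells with 5 and 617 CPM in the 16 cells with 6. The 30 markers outside the rule went from 1746 through 1945 and 2429.9 to 2436 CPM. The 635 cells with 2 genes, just outside the rule, stood at 1641 CPM of P2ry12 and 1934 CPM of these markers. The 16 cells with 6 genes were lowest in P2ry12, and the 3 cells with all 7, all of day 1, stood at 675 CPM. Cells with 6 or 7 genes were mostly day 1 cells, in which P2ry12 was low throughout. Within day 1, P2ry12 stood at 750.0, 694, 763, 648, 615, 603, 553 and 675 CPM over cells with 0 to 7 genes. The outside markers there stood at 1116, 1128, 1467, 1603, 1886, 2312, 2484 and 2700 CPM. In ATV:RSV, P2ry12 stood at 2179, 2119, 2155, 1795, 2012, 2040 and 787 CPM over cells with 0 to 6 genes. The outside markers of ATV:RSV stood at 2150, 2168, 2205, 2192, 2819, 3169 and 2688 CPM, on 4 cells with 5 genes and 2 with 6. The median UMIs per cell rose along the same axis, over all groups from 5769 with none of the genes to 11671 with 3 and 17465 with 6. Within day 1 the rise was not steady, with 8372 for none, 10056 for 1, 9624.5 for 5 and 16873 for 6 genes. P2ry12, Tmem119 and Sall1 were all detected in 72.3, 75.8, 81.9, 76.1, 81.1, 67.4, 62.5 and 100% of cells with 0 to 7 genes. With 5 genes, the share was 53.3% of 30 day 1 cells and 100% of the 2 to 4 cells in every other group. These day 1 cells had a median of 9624.5 UMIs, against 18350 to 21793 in the other groups, and the part of depth was not tested. With 6 genes, it was 61.5% of 13 day 1 cells, 50% of 2 ATV:RSV cells and 100% of 1 day 7 cell.

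**Figure D1:**
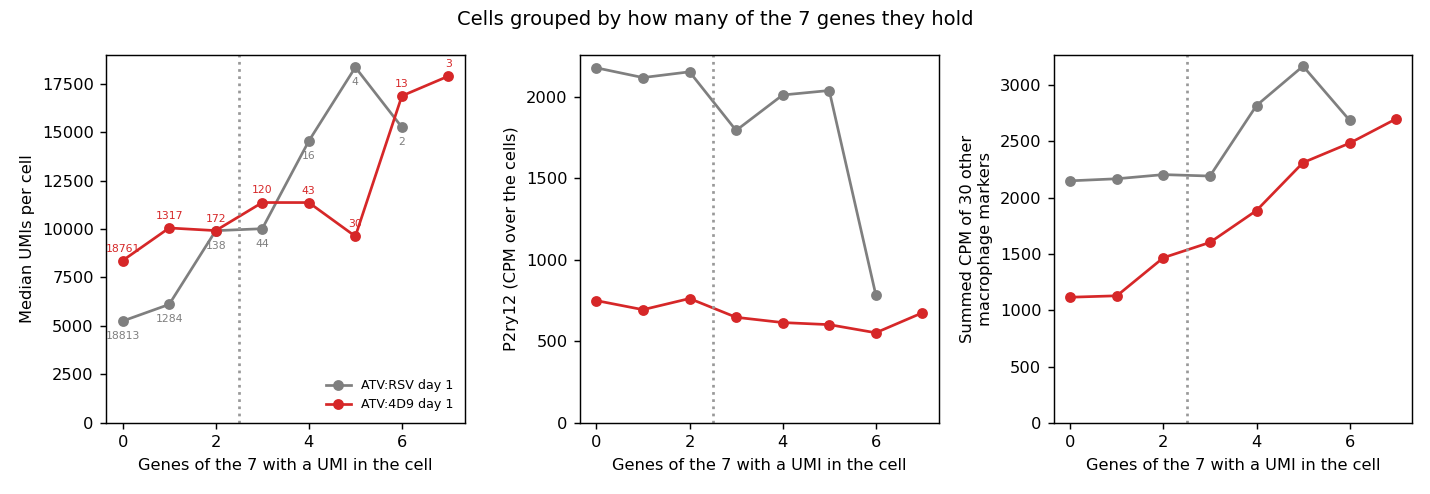
Median UMIs per cell with the number of cells (left), P2ry12 level (middle) and summed level of 30 macrophage markers outside the rule (right), the levels in CPM over pooled cells, plotted against how many of the 7 rule genes a cell held, for ATV:RSV day 1 and ATV:4D9 day 1; the dotted line marks the rule's threshold. In the day 1 cells the outside markers rise from 1116 CPM with 0 genes to 2484 CPM with 6. Their median UMIs per cell go from 8372 to 16873 without a steady rise, at 10056 with 1 gene and 9624.5 with 5.

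Markers of other cell types were compared in the same way. The 12 monocyte markers summed to 749 CPM against 357 CPM in other cells, of which Lyz2, a lysozyme gene that macrophages share, made up 727 and 338 CPM, and 16 of the 453 cells (3.53%) had UMIs of at least 3 of them against 0.542% of other cells. T and NK cell markers gave 81 UMIs and stood at 6.50 against 0.687 CPM on average, with 72.4 CPM in 1 day 1 mouse (replicate 2). Pericyte and smooth muscle markers stood at 5.88 against 2.71 CPM. Mast cell markers were at 0, choroid plexus markers at 5.37 against 77.9 CPM and fibroblast markers at 1.76 against 0.726 CPM. Red cell markers stood at 1.24 against 65.9 CPM, endothelial markers at 456 against 491 CPM and neuronal markers at 17.7 against 22.1 CPM. Among the 3 clusters that the authors deposited, 204 of the 209 multi-marker cells of day 1 (97.6%) were in cluster 2, as were 89.9% of the other day 1 cells. In ATV:RSV, cluster 2 held 10 of 66 multi-marker cells (15.2%) and 1.63% of other cells, and cluster 0 held 45 of them (68.2%) against 55.9%. The multi-marker cells thus formed no cluster of their own in the deposited annotation.

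Beyond these lists, the 12 genes with the largest median difference within a mouse included known border macrophage genes and genes of lipid and interferon biology. These differences are descriptive, because cells chosen by 7 macrophage genes can be taken along with others of the same cells. Wfdc17, which encodes a small secreted protein of activated macrophages, stood at 69.1 ± 55 against 2.92 ± 0.699 CPM, a median difference of 4.22. Lgals1 (galectin 1) stood at 52 ± 42.9 against 8.05 ± 9.92 CPM and Dab2 at 63.7 ± 37.7 against 11.3 ± 3.63 CPM. All 3 were higher in 15 of 15 mice, although Wfdc17 ranged from 6.72 to 200.1 CPM between mice.

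Apoe, the main apolipoprotein of the brain, was the most abundant of these genes. In multi-marker cells it stood at 4604, 2267 and 5477 CPM in ATV:RSV, 5378, 3281 and 3352 CPM at day 1, 5025, 2575 and 9822 CPM at day 7, 2898, 2335 and 2328 CPM at day 14 and 2245, 2401 and 2254 CPM at day 28. In other cells of ATV:RSV it stood at 485, 550.2 and 499.7 CPM. Every multi-marker value lay above the other cells of its own mouse, with a median difference of 2.13, and 1 day 7 mouse was the highest of all.

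The remaining genes of the 12 were Ifi27l2a, an interferon-induced gene (1.34, higher in 13 of 15 mice), the lipase Lpl (1.13, 11 of 15), Igfbp4 (0.99, 15 of 15), Lyz2 (0.87, 15 of 15) and the MHC class II invariant chain Cd74 (0.84, 13 of 15). Ifitm3, an antiviral membrane protein gene (0.72, 13 of 15), the phosphatidylserine binder Anxa5 (0.64, 13 of 15) and Ms4a6c (0.59, 14 of 15) completed them. Of the 20 interferon response genes as a list, 14 were higher and 6 lower (median 0.12, beside -0.16 over all genes), none of them higher in 15 of 15 mice. At the other end, Ttr, the transthyretin of choroid plexus epithelium, stood at 4.65 ± 5.97 against 74.8 ± 137 CPM and was higher in multi-marker cells of only 1 of 15 mice. The next lowest were Matk (-0.65), Cdk12 (-0.58) and Tmem100 (-0.55), followed by B430010I23Rik, Taf7, Knop1 and Ank2 at -0.52 to -0.50.

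Some of the sparse genes differed more, on few molecules. Cd209f stood at 21.9 ± 17.1 against 0.456 ± 0.123 CPM (median difference 5.18), Folr2 at 13.2 ± 10.8 against 0.7 ± 0.238 CPM (3.81) and the lectin Clec10a at 10.7 ± 7.73 against 0.315 ± 0.114 CPM (4.67). Cd209f and Folr2 were higher in every mouse and Clec10a in 12 of 15. The chemokine Ccl8 stood at 26.8 ± 32.3 against 0.455 ± 0.336 CPM, with 113 CPM in ATV:RSV replicate 1, and was higher in 10 of 15 mice only. H2-Aa, an MHC class II chain, stood at 28.9 ± 32.4 against 3.92 ± 1.78 CPM and was higher in 13 of 15. Trem2, the target of the antibody, and Maf, a transcription factor of tissue macrophages, differed little, with median differences of -0.20 and -0.05, and the scavenger receptor Stab1 stood at 0.18.

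**Figure D2:**
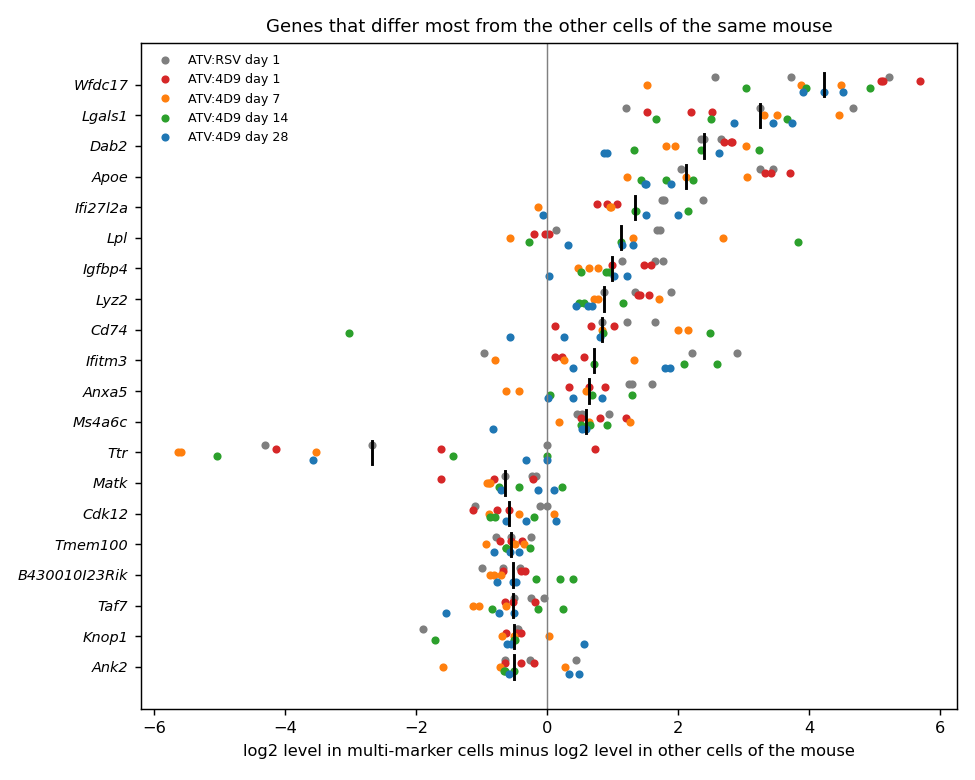
Log2 difference in CPM (prior count 2) between multi-marker cells and other cells of the same mouse for the 12 highest and 8 lowest genes; each point is 1 of 15 mice and the black bar is the median. Wfdc17, Lgals1, Dab2 and Apoe lie above 0 in all 15 mice, with medians of 4.22, 3.25, 2.39 and 2.13.

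The share of cells that met the rule was compared between groups at matched depth, because a cell with more UMIs reaches 3 genes more easily. Every cell was thinned to 3385 UMIs, which left out 10204 shallower cells (3.93% to 17.8% per mouse), and the rule was applied again to the thinned counts. The share was then 0.125, 0.0179 and 0.035% in the ATV:RSV mice, from 8, 1 and 2 cells, and 0.292, 0.229 and 0.495% in the day 1 mice, from 20, 16 and 28 cells. It was 0.0402, 0.0425 and 0.0141% at day 7, 0, 0 and 0.0167% at day 14 and 0.0149, 0.0316 and 0.0592% at day 28. All 3 day 1 mice stood above every mouse of the other groups. The day 14 mice lay below all 3 ATV:RSV mice, whose range overlapped those of days 7 and 28. The 2 shares of 0 at day 14 rest on 6709 and 5404 cells and allow a share of up to 0.0447% and 0.0555%. Counts this low depend on the draw, so the thinning was repeated. Averaged over 20 thinnings, an alternative chosen after seeing the data, the share was 0.109, 0.0528 and 0.0629% in ATV:RSV, 0.267, 0.264 and 0.468% at day 1, 0.0743, 0.0626 and 0.0325% at day 7, 0.0306, 0.0176 and 0.046% at day 14 and 0.0545, 0.0442 and 0.034% at day 28. Day 1 again stood above all other mice. The place of day 14 below all ATV:RSV mice held here too, but not unthinned, where ATV:RSV replicate 3 (0.231%) was below every day 14 mouse (0.253% to 0.293%), nor after thinning to 2000 UMIs or with at least 2 genes, where the groups overlapped.

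The 5 groups differed in an exact permutation test within batches (p = 0.0144, 14400 arrangements). Day 1 exceeded ATV:RSV by 0.280 percentage points (0.339% ± 0.139 against 0.0592% ± 0.0574, mean ± SD, n = 3), for which the exact 3 against 3 test gave p = 0.1, the smallest it allows, and 0.2 after adjustment over the 4 days. The excess was 0.168, 0.211 and 0.461 percentage points within the 3 batches. The differences at the later days were -0.0270, -0.0536 and -0.0240 percentage points, with exact p of 0.8, 0.1 and 0.6. Without thinning the shares were 0.385, 0.353 and 0.231% in ATV:RSV and 0.843, 1.02 and 1.23% at day 1, and 0.211% to 0.405% at the later days (exact permutation p = 0.0322 over the 5 groups).

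This call rested on the day 1 mice and on how depth was matched. Leaving out any 1 of the 3 day 1 mice gave p = 0.0722 in the exact permutation test. Among untouched cells of 8000 to 16000 UMIs, a window chosen after seeing the data, the share was 1.09% at day 1 and 0.842% in ATV:RSV, and the exact permutation over the 5 groups gave p = 0.464. With a stricter rule of at least 4 genes, the thinned shares were 0.149% and 0.00520% (exact p = 0.04).

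**Figure D3:**
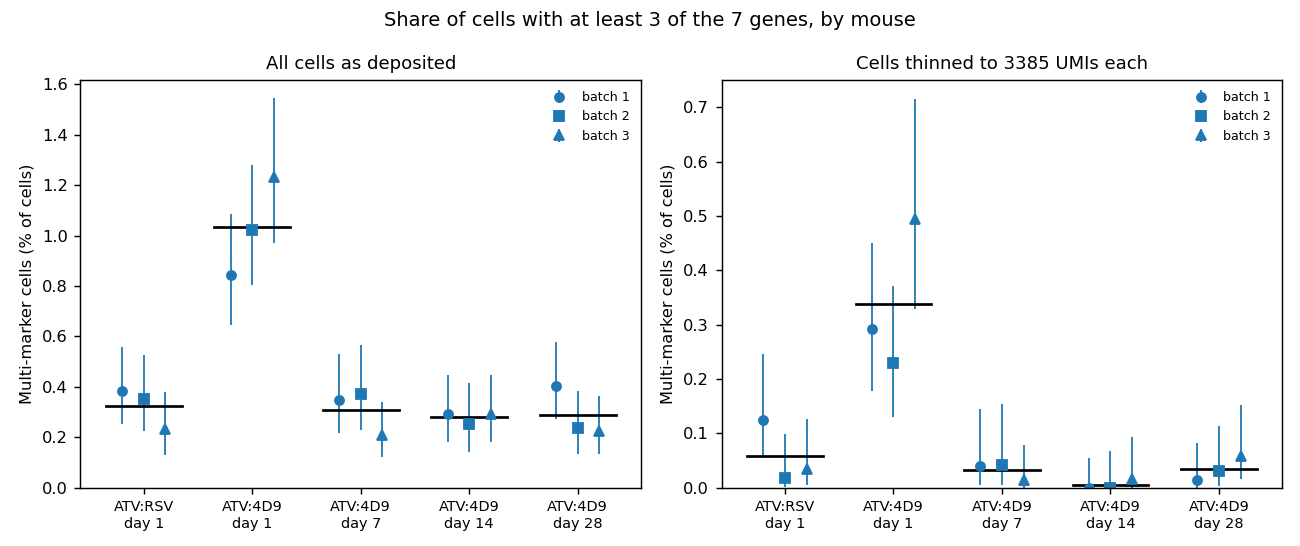
Percent of cells that met the rule in each mouse, as deposited (left) and after thinning every cell to 3385 UMIs (right), by group; the marker shape gives the batch, bars are 95% exact binomial intervals that cover counting error only, and black lines are group means. The 3 day 1 mice lie at 0.843, 1.02 and 1.23% on the left and 0.292, 0.229 and 0.495% on the right, above all other mice in both.

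Since a rise of a rule gene in microglia would by itself bring more cells over the threshold, the 7 genes were tested in sums over all cells of each mouse, where limma-voom with an adjusted p under 0.05 called 69.2% of 14260 genes at day 1 (34.7% as higher and 34.6% as lower). In such sums more cells of a type and more RNA per cell cannot be told apart. At day 1, 3 of the 7 genes were called, all higher. Pf4 stood at 6.79, 5.55 and 4.15 CPM in ATV:RSV and 9.11, 11.1 and 13.4 CPM at day 1 (log2 fold change 1.00 ± 0.19 SE, adjusted p = 0.000206). Cbr2 went from 0.92, 0.965 and 0.811 to 1.34, 1.57 and 2.03 CPM (log2 fold change 0.82 ± 0.19 SE, adjusted p = 0.00103) and Ms4a7 from 1.21, 0.965 and 0.501 to 2.18, 2.12 and 2.65 CPM (log2 fold change 1.41 ± 0.24 SE, adjusted p = 6.87e-05). The groups did not overlap for any of these 3 genes, and the share of all genes without overlap was not counted. With 69.2% of all genes called and 34.7% called higher, a count of 3 of 7 does not set the rule genes apart.

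The other 4 genes were not called. F13a1 had a log2 fold change of 0.54 (adjusted p = 0.0557), Cd163 of 0.25 (adjusted p = 0.46) and Lyve1 of 0.76 (adjusted p = 0.301) by limma-voom. Lyve1 ran from 0.14 without ATV:RSV replicate 3 to 1.45 without replicate 1. Mrc1, the most abundant of them, stood at 7.83, 6.75 and 9.38 CPM in ATV:RSV and 4.96, 7.06 and 7.7 CPM at day 1 (log2 fold change -0.31 ± 0.20 SE, adjusted p = 0.179). Mrc1 alone had a negative fold change, and whether the 7 genes differed from each other was not tested. With 1 mouse left out, 3 to 5 of the 7 genes were called. In other cells, Pf4 stood at 4.06 ± 0.952 CPM in ATV:RSV and 5.81 ± 1.07 CPM at day 1, and Mrc1 at 7.51 ± 1.33 and 4.38 ± 0.837 CPM. These levels are a description, since the rule used the same genes to set the other cells apart. Of the 30 markers outside the rule, 25 were tested in the whole-mouse sums at day 1, with 8 higher and 9 lower (median 0.32, beside -0.05 over all genes). These counts are close to the shares over all genes given above. The markers called included Folr2 at 1.06 and Dab2 at 0.74 and, in the other direction, the chemokine Ccl24 at -1.97 and Maf at -1.18. None of the 7 rule genes was called at days 7, 14 or 28 against ATV:RSV, where 3.98%, 0.4% and 0% of all genes were. Between day 1 and day 7, Pf4, Cbr2, Ms4a7 and F13a1 were lower at day 7 (-1.16, -1.13, -1.10 and -0.61), with 66.9% of all genes called and 33.9% lower.

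The response of the multi-marker cells themselves was tested on counts summed over the 15 to 75 cells of each mouse. The cells were picked anew in each mouse, by genes of which Pf4, Cbr2 and Ms4a7 were called higher at day 1 in whole-mouse sums. They held 9.53 to 10.3 UMIs of the rule genes per cell in the day 1 mice and 6.42 to 7.33 in ATV:RSV. P2ry12, Tmem119 and Sall1 were all detected in 55.0% to 68.0% and 73.3% to 95.8% of them. In this and the later comparisons, a change in which cells met the rule cannot be told apart from a change within cells. At day 1 against ATV:RSV, 2228 of 5218 genes were called (42.7%, limma-voom with adjusted p under 0.05), 1111 higher (21.3%) and 1117 lower (21.4%). Scaling by library size alone gave 939 higher and 1356 lower genes and moved the median of all genes from -0.04 to -0.16. Of the 2228 genes, 2167 were called in the same direction in the other cells of these mice, where 9839 of all 14236 genes tested were called. The median percent of mitochondrial UMIs per cell was 3.84, 3.64 and 4.78 in multi-marker cells of ATV:RSV and 5.31, 4.31 and 4.71 at day 1, and 3.26, 3.11 and 3.38 against 4.44, 3.96 and 4.49 in other cells, and its part in the result was not tested. The genes that rose included chemokines, interferon response genes, cell cycle genes and genes of glycolysis and oxidative phosphorylation, and those that fell included homeostatic microglia genes and macrophage transcription factors.

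Of 12 chemokine genes tested, out of 18 listed, 7 were higher and 1 lower (median 2.94), where genes near 0 in the controls, such as Ccl7, entered the test through their day 1 counts. Ccl7, a monocyte attractant, stood at 3.15, 0 and 56.8 CPM in ATV:RSV and 153, 159 and 271 CPM at day 1 (log2 fold change 5.44 ± 0.97 SE, adjusted p = 6.72e-05). Cxcl10, the interferon-induced ligand of CXCR3, went from 189, 15.8 and 437 to 1371, 2676 and 2582 CPM (log2 fold change 4.69 ± 0.57 SE, adjusted p = 4.06e-07). Ccl2 went from 161, 23.7 and 216 to 568, 810.4 and 1146 CPM (log2 fold change 3.38 ± 0.45 SE, adjusted p = 1.66e-06). For each of the 3 genes the lowest day 1 mouse lay above the highest control, and the controls spread widely, with replicate 2 always lowest. Without that mouse the log2 fold changes were 4.15 for Ccl7, 3.03 for Cxcl10 and 2.18 for Ccl2, and without another control they rose to 6.26 (replicate 3), 5.43 and 4.01 (replicate 1), with all 3 genes called each time. Ccl8 was not called (0.85, adjusted p = 0.244), and its value ran from -0.42 without ATV:RSV replicate 2 to 2.12 without replicate 1.

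All 16 interferon response genes tested, of 20 listed, were higher (median 3.01), although members near 0 in the controls could enter the test only through their day 1 counts. The list summed to 1604, 290.2 and 1443 CPM in the multi-marker cells of ATV:RSV and 5443, 6279.9 and 6059.9 CPM at day 1. Isg15, a ubiquitin-like modifier, went from 72.5, 10.6 and 222 to 335, 436 and 349 CPM (log2 fold change 3.17 ± 0.47 SE, adjusted p = 7.42e-06) and Ifit3, another interferon-induced gene, from 107, 5.28 and 51.1 to 169, 233 and 161 CPM (log2 fold change 2.84 ± 0.51 SE, adjusted p = 7.57e-05). Without ATV:RSV replicate 2, the lowest control, these were 1.76 (adjusted p = 0.000263) for Isg15 and 1.17 (adjusted p = 0.00649) for Ifit3 by limma-voom, and with any 1 mouse left out they ran up to 3.85 and 4.09. Multi-marker cells of 2 control mice already held more of these genes than the other cells, whose sums were 505, 328 and 367 CPM in the 3 mice.

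All 11 cell cycle genes tested were higher (median 3.44), but 22 were listed, and those near 0 in the controls could enter the test only through their day 1 counts, so that a rise was built into being tested. The list summed to 303, 211 and 108 CPM in ATV:RSV and 1333, 1715 and 1823 CPM at day 1. Rfc4, a subunit of the DNA clamp loader, had no UMI in any ATV:RSV mouse and stood at 62.5, 66.4 and 86.7 CPM at day 1, at least 19.4-fold higher against a floor of 3 counts over the group. E2f1, a transcription factor of S phase entry, was likewise at 0 in ATV:RSV and at 49.7, 56.5 and 47.6 CPM at day 1, at least 14.0-fold higher. The replication helicase gene Mcm5 had 1 UMI in ATV:RSV and 211 at day 1, a ratio of 67.4 (counting interval 12 to 2676), and the proliferation marker Mki67, which was too sparse to be tested, 2 and 166 (26.5, 7.23 to 221). Top2a, the mitotic topoisomerase, went from 12.6, 2.64 and 0 to 72.4, 94.1 and 125 CPM (log2 fold change 4.10 ± 1.00 SE, adjusted p = 0.00177).

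Metabolic genes rose by smaller amounts. Of 12 glycolysis genes tested 10 were higher (median 1.29), and of 22 oxidative phosphorylation genes 17 were higher (median 0.89), beside a median of -0.04 over all 5218 genes. Of 18 DAM genes, the set of disease-associated microglia, 8 were higher and 3 lower (median 0.70), and of 8 MHC class II genes 3 were higher and 1 lower, beside 21.3% higher and 21.4% lower over all genes. Cd74 went from 126, 52.8 and 90.9 to 531, 336 and 264 CPM (log2 fold change 2.12 ± 0.42 SE, adjusted p = 0.000214), while H2-Aa stood at 37.8, 10.6 and 0 and 128, 51.5 and 22 CPM and was not called (log2 fold change 1.86 ± 1.13 SE, adjusted p = 0.187). H2-Aa was called by edgeR (adjusted p = 0.0232). The receptor tyrosine kinase Axl went from 41, 0 and 11.4 to 66.7, 50.5 and 22 CPM (log2 fold change 2.56 ± 0.95 SE, adjusted p = 0.0302), which fell to 0.48 when ATV:RSV replicate 2 was left out (adjusted p = 0.594, limma-voom) and to 1.94 with the batch as a block (adjusted p = 0.0513).

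Of the 15 homeostatic microglia genes, 12 were lower and none was higher (median -0.64). P2ry12 stood at 1762, 1887 and 1443 CPM in ATV:RSV and 602, 605 and 725 CPM at day 1 (log2 fold change -1.41 ± 0.12 SE, adjusted p = 4.83e-10), a 2.66-fold drop in which every day 1 mouse lay below every control. Sall1 went from 236, 319 and 233 to 118, 141 and 123 CPM (log2 fold change -1.06 ± 0.17 SE, adjusted p = 1.62e-05). Csf1r fell by 0.64 on the log2 scale (adjusted p = 7.32e-06, limma-voom), and Tmem119 by 0.40 (adjusted p = 0.0136, and 0.0985 without ATV:RSV replicate 2).

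Macrophage transcription factors moved with them, with 14 of 16 tested lower and 1 higher (median -0.95). Maf went from 615, 678 and 443 to 314, 334 and 316 CPM (log2 fold change -0.85 ± 0.15 SE, adjusted p = 7.87e-05) and Klf4, a quiescence factor of myeloid cells, from 277, 224 and 222 to 55.4, 69.3 and 25.6 CPM (log2 fold change -2.35 ± 0.36 SE, adjusted p = 9.25e-06). Klf4 was among the 5 largest drops of the 681 lower genes with at least 10 UMIs in every control mouse and no overlap between groups, predicted genes left out. The others were Tsc22d3, the glucocorticoid-induced leucine zipper (344, 279.7 and 329.5 to 39.7, 58.4 and 74.5 CPM, -2.46), the corepressor Cbfa2t3 (-2.41), the cyclin G2 gene Ccng2 (113, 73.9 and 102 to 19.9, 18.8 and 17.1 CPM, -2.30) and the histone demethylase Kdm7a (-1.98). The dissociation immediate early genes, which tissue handling can induce, fell too, with 11 of 15 lower and none higher (median -1.07).

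Of 30 border macrophage genes outside the rule, 14 had enough counts to be tested, and 2 were higher and 4 lower (median 0.05), counts close to the shares over all genes (21.3% higher and 21.4% lower). Dab2 went from 59.9, 71.2 and 56.8 to 125, 124 and 123 CPM (log2 fold change 0.93 ± 0.26 SE, adjusted p = 0.00505), with the day 1 mice nearly equal and above all controls. Slc40a1 went from 113, 87.1 and 102 to 41.2, 53.5 and 41.5 CPM (log2 fold change -1.12 ± 0.20 SE, adjusted p = 4.99e-05), and of 9 iron genes tested 4 were lower and 2 higher. Cd209f (0.21, adjusted p = 0.775) and Stab1 (-0.17, adjusted p = 0.417) were not called by limma-voom. With 1 mouse left out Cd209f ran from -0.22 to 0.80 and Stab1 from -0.34 to 0.01, so neither had a settled direction. Folr2, Clec10a, Ccl24 and Tfrc, the transferrin receptor that the vehicle binds, had too few counts to be tested. Folr2 stood at 25.2, 5.28 and 11.4 CPM in ATV:RSV and 42.6, 16.8 and 25.6 CPM at day 1, which overlapped, and Tfrc at 3.15, 2.64 and 22.7 and 19.9, 20.8 and 25.6 CPM.

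Apoe did not follow the interferon and chemokine genes in these cells (log2 fold change 0.05 ± 0.28 SE, adjusted p = 0.892), and among cells with at least 4 of the 7 genes, where a single ATV:RSV mouse and 3 day 1 mice remained, its log2 fold change was 1.24, with no replicate of the control. With 1 mouse left out of the full set it ran from -0.35 to 0.30. Trem2 went from 2294, 2301 and 3170.4 to 2007, 1987 and 2067 CPM (log2 fold change -0.32 ± 0.11 SE, adjusted p = 0.0191), which was no longer called when ATV:RSV replicate 3 was left out (-0.16, adjusted p = 0.211). Its adaptor Tyrobp was higher (log2 fold change 0.28 ± 0.09 SE, adjusted p = 0.0171), again not called when ATV:RSV replicate 2 was left out (0.24, adjusted p = 0.0797). The complement gene C1qa was higher as well (log2 fold change 0.35 ± 0.08 SE, adjusted p = 0.000709). Of 13 TREM2 signalling genes tested, 1 was higher and 5 lower (median -0.32). Complement genes split into 3 higher and 4 lower of 9, scavenger receptors into 3 and 1 of 6 and Fc receptors into 2 and 2 of 6, beside 21.3% higher and 21.4% lower over all genes. The iron and heme gene Hmox1 was not called (-0.36, adjusted p = 0.232).

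**Figure D4:**
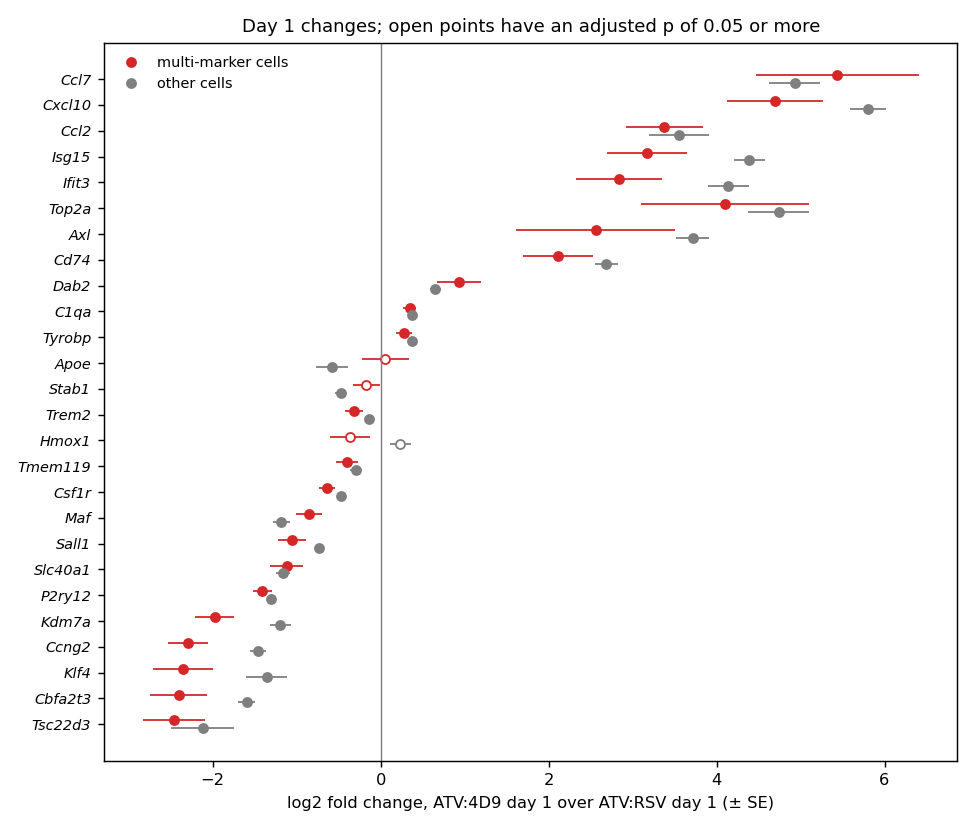
Log2 fold change of day 1 against ATV:RSV (± SE, limma-voom) for 26 named genes in multi-marker cells and in other cells of the same 6 mice; open symbols mark an adjusted p of 0.05 or more. P2ry12 lies at -1.41 and Cxcl10 at 4.69 in multi-marker cells.

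At the later days almost nothing stood apart from ATV:RSV in these cells. At day 7 a single gene was called (0.0192% of 5218), Lag3, an inhibitory immune receptor, which stood at 227, 232 and 273 CPM in ATV:RSV, 175, 133 and 138 CPM at day 1 and 549.7, 501 and 603 CPM at day 7 (log2 fold change 1.19 ± 0.16 SE, adjusted p = 0.000237). It stood at 447, 309 and 331 CPM at day 14 and 333, 351 and 255 CPM at day 28. The count at day 7 ran from 1 to 11 with 1 mouse left out, and DESeq2 and the batch as a block called more genes, as given in the last section. At day 14 the count was also 1 (0.0192%), and this gene was no longer called when ATV:RSV replicate 2 was left out. At day 28 limma-voom, edgeR and DESeq2 each called 0 genes, with 236 at an unadjusted p under 0.05 by limma-voom. With 15 to 30 cells per mouse at these days, small differences were not detectable.

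The return from day 1 was tested directly. Between day 1 and day 7, 2122 genes were called (40.7%), 1070 higher at day 7 (20.5%) and 1052 lower (20.2%). All 16 interferon genes and all 11 cell cycle genes tested were lower at day 7 (medians -3.50 and -3.33), and none of the 15 homeostatic genes was lower, with 11 higher (median 0.65). For genes of both the interferon and cell cycle lists that were near 0 at day 7, a drop was again built into being tested, since they entered through their day 1 counts. P2ry12 stood at 1511, 1842 and 1502 CPM at day 7 (log2 fold change 1.32 ± 0.12 SE, adjusted p = 1.95e-09). Dab2 stood at 38.6, 33.6 and 76.5 CPM at day 7 (log2 fold change -1.46 ± 0.29 SE, adjusted p = 0.000275). Among genes that met the same conditions on UMIs and overlap, those with the largest rise were Epb41l4aos, a noncoding RNA gene (2.95), Cdkn1c, an inhibitor of cyclin-dependent kinases (4.26, 5.94 and 8.55 to 51.4, 40.3 and 63 CPM, 2.92), the linker histone Hist1h1c (2.15), the lectin Clec4a3 (2.11) and Egr2 (2.11).

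The largest drops after day 1 under these conditions were in genes with few UMIs at day 7. Such genes entered through their day 1 counts, so that a drop was built into their being named. Ccl7 had 491 UMIs at day 1 and 3 at day 7, a ratio of 51.8 (counting interval 17.6 to 252), and the replication gene Mcm4 had 175 and 1 (55.4, 9.81 to 2199). Hells, a chromatin remodeller of dividing cells, had 167 and 2 (26.4, 7.20 to 220). Timeless, a replication fork gene, had 99 UMIs at day 1 and none at day 7, at least 10.4-fold lower. Ifit2 went from 111, 144 and 179 to 38.6, 0 and 0 CPM (log2 fold change -4.61 ± 1.45 SE, adjusted p = 0.0122). With 1 mouse left out, the Ifit2 value ran from -6.21 to -3.53. Day 7 replicate 3 kept more cell cycle RNA than the other 2 mice, with list sums of 177, 148 and 719.6 CPM and Top2a at 3.21, 3.36 and 67.5 CPM.

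Whether multi-marker cells responded differently from the other cells of the same mice was tested as a difference of the 2 effects. Here too, a change in which cells met the rule cannot be told apart from a difference in response. At day 1, 35 of 5218 genes were called (0.671%), 1 with a higher and 34 with a lower effect in multi-marker cells (limma-voom, adjusted p under 0.05). The median difference of all genes was -0.06. None of the 15 homeostatic genes and none of the 14 macrophage markers outside the rule was among them, nor any gene of the glycolysis, oxidative phosphorylation or chemokine lists.

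Immediate early genes were the list with most calls, 7 of 15, all with a lower effect (median -0.42, negative for all 15). The transcription factor Fos went from 4129 ± 159 to 1791 ± 345 CPM in multi-marker cells and from 3557 ± 151 to 2532 ± 295 CPM in other cells, a difference of -0.59 ± 0.07 SE, adjusted p = 0.000485. Jun, its partner in the AP-1 dimer, went from 5946 ± 283 to 2191 ± 240.2 CPM in multi-marker cells and from 5448 ± 394 to 3026 ± 269 CPM in other cells (-0.46 ± 0.07 SE, adjusted p = 0.00176). Both stood above the other cells in ATV:RSV and below them at day 1, and in both classes they fell. Egr1 (-0.59), Dusp1 (-0.55), Junb (-0.52), Btg2 (-0.42) and Zfp36 (-0.41) had differences of like size. These 7 genes are named because their list held most calls, which was seen in the data. Over 13 alternative settings Fos was called in 11, Junb in 10, Jun, Egr1 and Btg2 in 9, Zfp36 in 6 and Dusp1 in 5. The list summed to 30708, 30462 and 32374 CPM in multi-marker and 28195, 30201 and 27500.2 CPM in other cells of the ATV:RSV mice, and to 12069, 17077 and 13619 and 18948, 21887 and 19745 CPM at day 1. UMIs per cell moved with this, since the multi-marker cells were 2.21, 2.97 and 2.19 times as deep as the other cells in ATV:RSV and 1.27, 1.48 and 1.38 times at day 1, and the part of depth in the difference was not tested beyond other cells matched for UMIs. Against those, all 7 differences remained negative, with Fos (-0.46, adjusted p = 0.0035) and Junb (-0.39, adjusted p = 0.0398) called and Egr1 (-0.41), Dusp1 (-0.42), Jun (-0.27), Btg2 (-0.29) and Zfp36 (-0.30) not called (limma-voom, adjusted p of 0.0959 to 0.275).

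**Figure D5:**
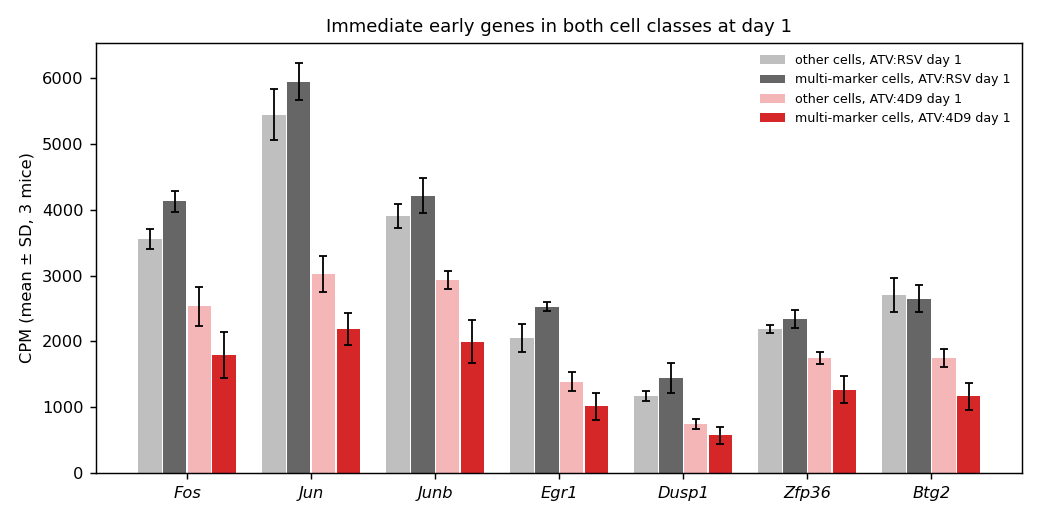
CPM (mean ± SD of 3 mice) of the 7 immediate early genes called in the difference of effects, in multi-marker and other cells of ATV:RSV day 1 and ATV:4D9 day 1. For Fos the multi-marker mean is 4129 CPM in ATV:RSV and 1791 CPM at day 1, against 3557 and 2532 CPM in other cells.

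The largest differences were in genes that were low in other control cells. Uhrf1, a factor that maintains DNA methylation at replication, went from 3.69 ± 3.99 to 43.5 ± 12.9 CPM in multi-marker cells and from 0.409 ± 0.184 to 57.6 ± 9.92 CPM in other cells (-3.90 ± 0.51 SE, adjusted p = 0.000548), on 4 UMIs in the multi-marker cells of ATV:RSV, so that it entered the test through its day 1 counts. Iigp1, an interferon-inducible GTPase, stood at 34.7, 0 and 56.8 CPM in multi-marker cells of ATV:RSV and 28.4, 25.8 and 40.3 CPM at day 1, while the other cells went from 1.25 ± 1.33 to 23.1 ± 1.8 CPM (-3.62 ± 0.54 SE, adjusted p = 0.00127). Replicates 1 and 3 of the controls were thus already near the day 1 level in the multi-marker cells and replicate 2 was at 0. Rsad2, the antiviral enzyme viperin, stood at 9.45, 2.64 and 125 CPM in multi-marker cells of ATV:RSV and 58.2, 116 and 84.2 CPM at day 1 (-3.25 ± 0.72 SE, adjusted p = 0.0355), so that replicate 3 alone of the controls was at the day 1 level. Ifi207, another interferon-inducible gene, stood at 59.9, 0 and 51.1 and 72.4, 77.3 and 52.5 CPM (-2.91 ± 0.60 SE, adjusted p = 0.0181). Without ATV:RSV replicate 3 neither was called (-1.5, adjusted p = 0.655, for Rsad2 and -2.18, adjusted p = 0.39, for Ifi207, limma-voom), and Ifi207 was not called without replicate 1 either (-2.54, adjusted p = 0.543). Over the list, 2 of 16 interferon genes were called, beside 0.671% of all genes. The difference was negative for all 16 (median -1.74, beside -0.06 over all genes). Members near 0 in the controls could enter this test only through their day 1 counts. Rsad2, a member of the list, changed sign against other cells matched for UMIs, as given below. Dtl (-2.77 ± 0.59 SE, adjusted p = 0.025) had no UMI in multi-marker cells of ATV:RSV and 39.5 ± 2.87 CPM at day 1, a rise known only as at least 10.8-fold, so that a smaller effect than in other cells cannot be read from it, and its fitted difference took the opposite sign, 5.99, in edgeR (adjusted p = 0.943). Selenop, which encodes the selenium carrier of plasma and brain, was the single gene with a higher effect, as it went from 1343 ± 169.6 to 543 ± 23.3 CPM in multi-marker cells and from 1273 ± 57 to 395 ± 17.1 CPM in other cells (0.52 ± 0.08 SE, adjusted p = 0.00176).

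A pair of other called genes is named here after their values were seen. The adhesion molecule Icam1 went from 479 ± 11.8 to 357 ± 74.9 CPM in multi-marker cells and from 413 ± 25.9 to 607 ± 65.6 CPM in other cells (-0.83 ± 0.11 SE, adjusted p = 0.00067). Klf2, a transcription factor that restrains myeloid activation, went from 906 ± 261 to 279 ± 44.3 CPM in multi-marker cells and from 596 ± 158 to 403 ± 73.2 CPM in other cells (-0.98 ± 0.15 SE, adjusted p = 0.00132). In both the multi-marker cells started above the other cells and ended below them.

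These calls depended on which cells stood on the other side. Against other cells matched for UMIs, 13 of the 35 genes were still called and 33 kept their sign. The differences of Iigp1 (0.40, adjusted p = 0.923) and Rsad2 (0.13, adjusted p = 0.984, limma-voom) changed sign. Without multi-marker cells above the 95th percentile of UMIs of their mouse, none of the 28 genes that could be tested was called, with 2 of the 3 ATV:RSV mice left. Of these 28 genes, 27 kept their sign. The count was 15 without ATV:RSV replicate 1, 63 without replicate 2 and 21 without replicate 3. At days 7, 14 and 28 the difference of effects was called for 0 genes by limma-voom, with 274, 268 and 284 genes at an unadjusted p under 0.05, and edgeR called 1, 2 and 0.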

How the data were processed

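Per the labels and the study's methods, the authors captured single cells with a 10x 3′ kit, aligned their reads to mm10 in Cell Ranger (version 4.0.0 in the submitters' processing notes, with other versions named in the study's methods) and clustered the cells in Seurat, and their filters on cells are not given in the sources used here. The deposited matrix holds raw UMI counts per gene and cell, and the deposited cell table gives UMI counts, the percent of mitochondrial UMIs, the cluster and the animal of origin for each cell. Another control animal named in the labels was not analysed here. The members, gene lists and tests were chosen with earlier results of these data known.

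Counts were summed over the multi-marker and the other cells of each mouse, since cells are not replicates. Genes passed filterByExpr (minimum count 10, minimum total 15) and were tested with limma-voom after TMM scaling (limma 3.58.1, edgeR 4.0.16, R 4.3.3), with group means over all 15 mice and Benjamini-Hochberg adjustment over all genes. The difference of effects used both sums of each mouse with the mouse as a block. The 7 rule genes were left out of the adjustment and the calls of both fits, though not out of the count sums. CPM per mouse use TMM-scaled totals, whereas levels by number of rule genes pool the cells of a group. Log2 differences between classes use a prior count of 2, and intervals on counts, like the floor of 3 counts for a 0, cover counting error only. Shares were tested in Python (numpy 2.4.6, scipy 1.17.1) with exact two-sided tests that permuted group labels inside each batch, or 3 mice against 3. DESeq2 1.42.0, edgeR, other scalings and filters, other rules, cells matched by UMIs and leaving out mice were the alternatives. The fits were tested on simulated counts with known changes.

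Named genes were the 7 rule genes, 28 genes set in advance of the fits, and for each comparison the 5 highest and 5 lowest called genes with at least 10 UMIs in each mouse of the higher group and no overlap (no overlap condition for the difference of effects). Predicted genes were left out of these. A few genes of the lists and calls are not reported here by name. Against other cells, the 12 highest and 8 lowest genes with a mean of at least 50 CPM in the higher class were named. Positions are 1-based, from GENCODE M21 on mm10, which matched 31506 of 32372 symbols.

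Per the labels, all 5 groups are present once in every one of the 3 batches, so the batch number pairs the mice. Deviations from the group means had a mean r of 0.0261 within batches (30 pairs, -0.0245 to 0.0898) and -0.0131 between them (60 pairs) across the genes of the multi-marker sums. The mice are separate animals, so the spread between them is biological and technical together.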

Additional observations from a re-analysis of the deposited data

Results flagged for a closer look

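The change at day 1 differed between multi-marker cells and other cells of the same mice in a test of the difference itself (limma-voom, adjusted p under 0.05) for each of these genes. A change in which cells met the rule cannot be told apart from a difference in response. Of the genes in the rule for named genes, the differences were -3.90 for Uhrf1, -3.62 for Iigp1, -3.25 for Rsad2, -2.91 for Ifi207, -2.77 for Dtl, -1.97 for Timeless and 0.52 for Selenop, on the log2 scale and as multi-marker minus other cells. Of the immediate early genes, they were -0.59 for Fos, -0.59 for Egr1, -0.55 for Dusp1, -0.52 for Junb, -0.46 for Jun, -0.42 for Btg2 and -0.41 for Zfp36. Dtl and Timeless had no UMI in the multi-marker cells of the ATV:RSV mice, so their rise there is known only as at least 10.8-fold and 10.5-fold against a floor of 3 counts over the group, and a smaller effect than in other cells cannot be read from them. Dtl took the opposite sign in edgeR. Uhrf1 had 4 UMIs in those cells, and its difference rests on them. Timeless stood at 0.448 ± 0.154 CPM in the other cells of these mice (mean ± SD, n = 3). Against other cells matched for UMIs, Iigp1 and Rsad2 changed sign (0.40 and 0.13). Of all 35 called genes, 13 were still called there and 33 kept their sign. Without the multi-marker cells above the 95th percentile of UMIs, which left 2 ATV:RSV mice, 0 of 28 were called and 27 kept their sign. The multi-marker cells of these mice were 2.19 to 2.97 times as deep as the other cells, and those of day 1 1.27 to 1.48 times.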

How the results depend on the processing

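With 15 to 75 cells per mouse, sparse genes and small changes were beyond the depth of these sums, and the 3 against 3 tests of a share could not pass 0.05. The share over the 5 groups kept its call under 10 other settings and lost it in cells of 8000 to 16000 UMIs (exact permutation p = 0.464). The day 7 share turned to 0.00188 percentage points above ATV:RSV with at least 4 genes and to 0.113 in that window. With 1 mouse left out, the thinned shares gave an exact p over the 5 groups of 0.0125 to 0.0722 and differences of 0.201 to 0.335 at day 1, -0.0476 to 0.00584 at day 7, -0.0743 to -0.0209 at day 14 and -0.0446 to 0.00881 at day 28. The unthinned shares gave 0.0212 to 0.161, 0.609 to 0.805, -0.0590 to 0.0365, -0.0897 to -0.0130 and -0.0919 to -0.00271. The difference turned positive without ATV:RSV replicate 1 at day 7 (0.00584, and 0.0177 unthinned) and day 28, and unthinned at day 7 without ATV:RSV replicate 2 (0.00197) or day 7 replicate 3.

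Of the genes called in multi-marker cells, DESeq2 gave 1457 at day 1 and 15 at day 7. Without the filter on low counts there were 4193 at day 1, 8 at day 7, 2 at day 14 and 3915 between days 7 and 1. Scaling by library size gave 3 at day 7, and the batch as a replicate block gave 6. With at least 4 genes (1 ATV:RSV and 3 day 1 mice left) day 1 had 471, without Ms4a7 in the rule day 14 had 0, and without cells above the 95th percentile of UMIs (2 ATV:RSV mice and 1 mouse each at days 7 and 14 left) day 1 had 790, day 7 had 4, day 14 had 0 and days 7 and 1 differed in 321. Counts with a lone mouse assume that it varies like the other groups and say nothing of its group's spread. Leaving out 1 mouse gave 1564 to 2138 at day 1, 1 to 11 at day 7, 0 to 2 at day 14, 0 to 1 at day 28 and 1570 to 2017 between days 7 and 1.

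For the difference of effects at day 1, there were 354 genes without the filter, 21 against matched cells, 4 with at least 4 genes and 0 without the deepest cells, and 15 to 63 with 1 mouse left out. At day 7 edgeR gave 1, the replicate block 2 and the set without the deepest cells, a lone mouse, 7 (0 to 1 with 1 mouse left out). At day 14 these were 2, 1 and, again for a lone mouse, 16 (0 to 1), and at day 28 the last gave 1 (0 to 2). Iigp1 and Rsad2 turned to 0.40 and 0.13 against matched cells, and Dtl to 5.99 in edgeR. The rule genes called in whole-mouse sums numbered 3 to 5 at day 1 and between days 7 and 1, and 0 to 0 at the other days. The median over all 30 outside markers, including those under 10 UMIs, rose from 0.71 to 1.49 with at least 4 genes. Within the paired batches the day 1 share gave an exact p of 0.25, the smallest 3 pairs allow. The causes of these changes were not tested.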
